A study of Mus musculus with 12 samples.

Results

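The 45 genes examined here encode proteins that copy DNA in S phase (19 replication genes) or that divide the chromosomes and the cell in mitosis (26 mitotic genes). They were chosen by name, and each was read from the probe set of that single gene symbol with the highest mean signal over the 12 arrays. 44 of the 45 were measured among the 18193 genes tested: all 19 replication genes and 25 mitotic genes, since the mitotic cyclin gene Ccnb1 is not analysed here for want of a probe set of its own. Messenger RNA was hybridised from bone marrow-derived macrophages (BMDMs), which are marrow cells grown for 7 days with the growth factor M-CSF, of female c57bl6 mice. Both genotypes carried floxed alleles of Trsp, the gene for the tRNA that delivers selenocysteine into selenoproteins. Control mice (Trspfl/fl-LysM-Cre-/-) had no Cre recombinase, and ΔTrspM mice (Trspfl/fl-LysM-Cre+/-) had Cre under the lysozyme M promoter, which is active in myeloid cells and deletes Trsp there. BMDMs of each genotype were left unstimulated or were given lipopolysaccharide (LPS), the bacterial ligand of TLR4, for 4 h, with 3 arrays for each of the 4 groups. The labels call the arrays of a group biological replicates and do not say which mouse each came from, so p-values measure the spread between these samples. Trsp itself is not analysed here, and a fraction of cells can escape deletion by this Cre, which leaves the labelled genotypes without a check in these data. The paper checked deletion by quantitative PCR in each cell preparation. It reports that ΔTrspM macrophages had lost nearly all of the tRNA and most labelled selenoprotein.

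Cells commit to division in G1, when cyclin D and cyclin E kinases release E2F transcription factors, which switch on the genes for DNA replication. Origins of replication are first licensed by Cdc6 and Cdt1, which load the Mcm2 to Mcm7 helicase, and the fork then fires with Cdc45, the GINS complex and Pcna. Mitotic genes come on later, in G2, through the CHR element and CCAAT boxes of their promoters and factors such as Foxm1 and the B-Myb complex. BMDMs divide in response to M-CSF, and LPS is known to halt that division.

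Promoter sequence is shown for 7 members so that the motifs of the 2 classes can be read side by side. RefSeq (GRCm38.p6) held an upstream window for 35 of the 44 measured members (37 promoters, since Mcm7 and Prc1 have 2). Each run is the 250 bases before the transcription start of the RefSeq entry, 5′ to 3′ on the gene's strand, and capitals mark matches on either strand to the letters of an E2F site, a CHR element or the CCAAT box. The E2F letters searched were TTCCCGC, its variant TTGGCGC, the variant TTCGCGC and lastly TTGCCGC. The CHR letters were TTTGAA and the related TTCGAA. Cdc6 (chr11:98907901-98908150, plus strand), Mcm5 (chr8:75109259-75109508, plus), Mcm6 (chr1:128359706-128359955, minus) and Cdt1 (chr8:122567765-122568014, plus) are licensing genes. Ccnb2 (chr9:70421555-70421804, minus), Cdc20 (chr4:118437344-118437593, minus) and Cdk1 (chr10:69352913-69353162, minus) are mitotic genes. The 7 were picked with their matches and their values in view.
Cdc6: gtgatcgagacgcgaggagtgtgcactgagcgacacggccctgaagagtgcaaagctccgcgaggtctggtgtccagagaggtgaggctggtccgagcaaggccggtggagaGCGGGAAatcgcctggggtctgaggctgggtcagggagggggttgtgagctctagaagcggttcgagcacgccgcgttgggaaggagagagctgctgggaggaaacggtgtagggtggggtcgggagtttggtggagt
Mcm5: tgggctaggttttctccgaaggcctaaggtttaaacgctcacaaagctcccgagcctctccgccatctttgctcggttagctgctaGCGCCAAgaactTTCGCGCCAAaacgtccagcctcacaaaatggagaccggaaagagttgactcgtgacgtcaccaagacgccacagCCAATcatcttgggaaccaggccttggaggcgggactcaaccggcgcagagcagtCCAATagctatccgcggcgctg
Mcm6: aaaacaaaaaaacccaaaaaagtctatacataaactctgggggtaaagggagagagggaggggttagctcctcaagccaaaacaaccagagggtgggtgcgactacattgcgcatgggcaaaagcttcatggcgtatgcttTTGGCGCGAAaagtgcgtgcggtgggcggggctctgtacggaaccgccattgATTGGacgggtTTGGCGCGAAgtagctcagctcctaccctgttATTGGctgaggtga
Cdt1: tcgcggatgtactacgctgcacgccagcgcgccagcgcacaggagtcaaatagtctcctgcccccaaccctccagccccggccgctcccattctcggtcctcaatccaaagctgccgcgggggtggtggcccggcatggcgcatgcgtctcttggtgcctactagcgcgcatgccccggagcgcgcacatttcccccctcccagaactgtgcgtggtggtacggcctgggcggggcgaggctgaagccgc
Ccnb2: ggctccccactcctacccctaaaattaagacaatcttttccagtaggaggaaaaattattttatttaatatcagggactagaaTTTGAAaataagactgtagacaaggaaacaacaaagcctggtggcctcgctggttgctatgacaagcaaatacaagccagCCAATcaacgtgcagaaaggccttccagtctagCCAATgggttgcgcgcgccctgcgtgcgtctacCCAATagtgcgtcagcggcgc
Cdc20: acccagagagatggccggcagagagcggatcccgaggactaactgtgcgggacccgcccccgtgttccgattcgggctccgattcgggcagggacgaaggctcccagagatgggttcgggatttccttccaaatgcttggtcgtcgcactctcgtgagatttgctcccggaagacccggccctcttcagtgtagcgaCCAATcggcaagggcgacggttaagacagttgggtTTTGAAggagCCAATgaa
Cdk1: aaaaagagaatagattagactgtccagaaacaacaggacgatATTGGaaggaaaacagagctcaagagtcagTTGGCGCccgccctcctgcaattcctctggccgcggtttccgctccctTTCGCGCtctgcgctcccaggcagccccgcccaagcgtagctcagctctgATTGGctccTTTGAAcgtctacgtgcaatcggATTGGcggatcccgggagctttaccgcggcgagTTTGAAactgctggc

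E2F letters stood in the promoters of Cdc6, Mcm5, Mcm6 and Cdk1, the CHR letters in those of Ccnb2, Cdc20 and Cdk1, CCAAT in those of Mcm5, Mcm6, Ccnb2, Cdc20 and Cdk1, and none of the searched letters in that of Cdt1. Across the members with an entry, 43.8% of the 16 replication promoters held E2F letters, against 9.52% of the 21 mitotic promoters and 7.89% of all 32851 promoters in the table. CHR letters stood in 18.8% of replication promoters, 38.1% of mitotic promoters and 17.1% of all promoters. CCAAT was in 62.5% of replication promoters, 90.5% of mitotic promoters and 33.8% of all promoters. In the 100 bases before the start the E2F shares were 12.5% (2 of 16), 4.76% and 3.73%, the CHR shares 6.25%, 28.6% and 6.13% and the CCAAT shares 56.2%, 81% and 18.9%, in the same order. No member promoter had matches to different motifs that overlapped. A match is a string of letters and not a bound site, and the shares are a description of these windows.

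The 12 arrays had deposited median signals between 17.7 and 101.1, and the lowest was that of ΔTrspM LPS replicate 2, on which 47.7% of probe sets lay under 16. After quantile normalization the macrophage genes Csf1r, Adgre1 and Lyz2 each had group means above 13 on the log2 scale, and all 11 genes of an LPS response list rose with LPS in the average over both genotypes (limma, adjusted p under 0.05; median log2 change 5.75). One control array stood apart on that list. Control unstimulated replicate 2 lay at -1.06 (median deviation of the 11 genes from their 12-array mean), against -3.04 and -3.49 in the other control unstimulated arrays, and ΔTrspM unstimulated replicate 2 lay at -2.46 against -3.65 and -3.50. Stromal markers, a list of 12 fibroblast genes, were also low on these replicate 2 arrays, at -2.18 in control and -1.35 in ΔTrspM unstimulated cells. Counts and class medians are also given without single arrays.

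The cell cycle genes varied with the replicate number in every group. Replicate 2 was the lowest of the 3 arrays for 44 of 44 members in control unstimulated cells, 44 of 44 in ΔTrspM unstimulated cells, 42 of 44 in control LPS cells and 43 of 44 in ΔTrspM LPS cells, whereas it was the lowest for 38.9%, 41.5%, 44.9% and 46% of all genes. In all 4 groups at once it was the lowest for 41 of the 44 members and for 11.5% of all genes. The 3 exceptions were Mki67 and Tyms in control LPS cells and Cdt1 in ΔTrspM LPS cells. The median standard deviation within groups was 1.02 log2 units for the members and 0.40 for all genes, and it was 0.36 and 0.33 once each replicate number had a term of its own (a replicate block). Mitotic genes had a median SD within groups of 1.09 and replication genes of 0.86, and with the block the order turned, to 0.34 and 0.40. Replicate 2 also had the lowest deposited median signal of each group, at 76.7 and 61.1 in control and ΔTrspM unstimulated cells and 43.5 and 17.7 with LPS, and the part of array signal in the pattern was not tested. The labels give no meaning to the number beyond the replicate, and in a bulk sample fewer dividing cells and less of each mRNA per cell cannot be told apart.

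**Figure D1:**
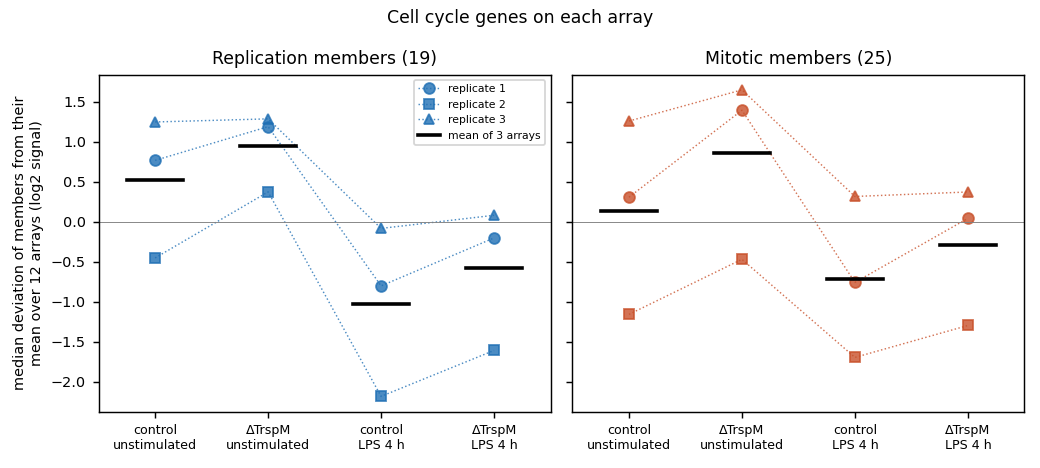
Median deviation of the replication members (left, 19 genes) and the mitotic members (right, 25 genes) from their own mean over the 12 arrays, in log2 signal, for each array of the 4 groups. Marker shape gives the replicate number, dotted lines join arrays of 1 number for the eye, and black bars are means of 3 arrays. Replicate 2 is the lowest array of every group in both panels, and LPS arrays lie below the unstimulated arrays of the same genotype and number.

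The array medians show both effects together. For the replication genes the 3 control unstimulated arrays lay at 0.77, -0.45 and 1.24 (replicates 1, 2 and 3) and the control LPS arrays at -0.80, -2.18 and -0.08. For the same genes the ΔTrspM unstimulated arrays lay at 1.19, 0.37 and 1.28 and the ΔTrspM LPS arrays at -0.20, -1.61 and 0.08. Within each replicate number the LPS array was the lower one by more than a log2 unit. The range over the 3 numbers also exceeded a log2 unit in each group except ΔTrspM unstimulated cells. The mitotic genes lay at 0.31, -1.16 and 1.26 in control unstimulated cells and at -0.76, -1.69 and 0.31 in control LPS cells. In ΔTrspM cells they lay at 1.39, -0.47 and 1.65 unstimulated and at 0.04, -1.30 and 0.37 with LPS. The order of the 3 numbers was the same in all 4 groups for both classes, with replicate 3 highest and replicate 2 lowest.

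A few replication genes fell with LPS in each genotype, and more did once replicates were paired. In control BMDMs 4 of the 44 members fell and 0 rose, all 4 of them replication genes (limma, adjusted p under 0.05), where 8.54% of all genes fell and 7.09% rose. They were Cdc6, Cdt1, Ccne2 (cyclin E2, which drives entry into S phase) and E2f1 (a transcription factor that activates replication genes). In ΔTrspM BMDMs 5 members fell and 0 rose, the same 4 and Mcm2 (a helicase subunit), where 8.51% of all genes fell and 7.29% rose. These shares of the members, 4 and 5 of 44, are near the background. With the replicate block the counts were 29 in control cells (15 replication and 14 mitotic) and 33 in ΔTrspM cells (16 and 17), against 13.4% and 13.2% of all genes. The numbers were taken to pair the samples by the check given with the methods, so both counts are reported. Every LPS array lay below every unstimulated array for 7 members in control cells, all of them replication genes (19.4% of all genes), and for 16 in ΔTrspM cells, 14 replication and 2 mitotic (19.5% of all genes).

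The change was also averaged over both genotypes, which uses all 12 arrays. 15 members fell with LPS and 0 rose, against 16.5% of all genes that fell and 11.8% that rose. Of the 15, 13 were replication genes out of 19 and 2 were mitotic genes out of 25, the midzone motor gene Kif23 and the checkpoint kinase gene Ttk. With the replicate block 37 members fell (17 replication and 20 mitotic), against 20.9% of all genes. The count without the block was 24 without control unstimulated replicate 2. It was 8 without control unstimulated replicate 1 or replicate 3, without ΔTrspM unstimulated replicate 1 or replicate 3, or without ΔTrspM LPS replicate 2, and it was 9 without control LPS replicate 2. With the block and without replicate 2 of every group, a setting chosen after the data were seen, it was 36.

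Among the licensing genes all 8 fell in the average, by a median of -1.69 on the log2 scale. Cdt1, which loads the helicase with Cdc6 and is destroyed once S phase begins, read 12.60, 11.68 and 12.71 in control unstimulated cells, 10.40, 9.48 and 10.04 in control LPS cells, 12.78, 12.58 and 12.73 in ΔTrspM unstimulated cells and 10.61, 10.46 and 9.99 in ΔTrspM LPS cells (log2 signal). Every LPS array lay below every unstimulated array. The change was -2.35 ± 0.32 (SE) in control cells (5.11-fold lower, limma adjusted p = 0.000575) and -2.34 ± 0.32 in ΔTrspM cells (5.06-fold lower, limma adjusted p = 0.000666). Cdc6, the origin loading ATPase, read 8.86, 7.10 and 9.44 in control unstimulated cells, 5.48, 4.93 and 6.23 in control LPS cells, 9.65, 8.45 and 9.48 in ΔTrspM unstimulated cells and 6.53, 5.39 and 6.18 in ΔTrspM LPS cells. The groups did not overlap in either genotype, and the LPS arrays read low on a scale whose floor is set by the added constant. Cdc6 changed by -2.92 ± 0.58 in control cells (7.55-fold lower, limma adjusted p = 0.00598) and by -3.16 ± 0.58 in ΔTrspM cells (8.95-fold lower, limma adjusted p = 0.00415).

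The 6 helicase subunits changed by less than Cdc6 and Cdt1 in the average. Mcm2 read 10.06, 9.35 and 10.72 in control unstimulated cells, 8.66, 8.22 and 9.82 in control LPS cells, 10.59, 10.24 and 10.91 in ΔTrspM unstimulated cells and 8.87, 8.53 and 9.55 in ΔTrspM LPS cells. The ΔTrspM groups did not overlap, and the control groups did, through replicate 3. Its change was -1.60 ± 0.45 in ΔTrspM cells (limma adjusted p = 0.0350) and -1.15 ± 0.45 in control cells (limma adjusted p = 0.119, and 0.00402 with the replicate block). The ΔTrspM call of Mcm2 was lost under 8 of the 23 alternatives, 6 of which left out 1 array. Mcm7 read 12.51, 10.92 and 12.81 in control unstimulated cells, 10.57, 8.46 and 11.48 in control LPS cells, 12.80, 11.88 and 12.83 in ΔTrspM unstimulated cells and 11.45, 9.26 and 11.51 in ΔTrspM LPS cells. In each replicate the LPS array was lower, and unstimulated replicate 2 of the control lay below LPS replicate 3. The 6 Mcm genes changed by -1.37 (Mcm2 and Mcm4) to -1.84 (Mcm7) in the average, with limma adjusted p from 0.00752 (Mcm3) to 0.0416 (Mcm4). The call in the average was lost without any of 9 arrays taken singly for Mcm4, 7 for Mcm5 and Mcm6 and 6 for Mcm7.

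G1/S regulators formed the other group in which each member fell in the average (3 of 3). Ccne2 read 9.73, 8.13 and 10.34 in control unstimulated cells, 6.52, 5.99 and 7.45 in control LPS cells, 10.57, 9.56 and 10.17 in ΔTrspM unstimulated cells and 6.88, 6.54 and 7.59 in ΔTrspM LPS cells. Its groups did not overlap, and the change was -2.75 ± 0.55 in control cells (limma adjusted p = 0.00622) and -3.10 ± 0.55 in ΔTrspM cells (limma adjusted p = 0.00345). Ccne1, the gene of the other E cyclin, changed by -1.32 ± 0.43 in the average (limma adjusted p = 0.0402), and its control groups overlapped. The Ccne1 call was lost without any of 8 arrays taken singly. E2f1 read 9.67, 8.94 and 9.97 in control unstimulated cells, 8.13, 7.81 and 8.41 in control LPS cells, 10.15, 9.43 and 10.24 in ΔTrspM unstimulated cells and 8.74, 7.86 and 8.45 in ΔTrspM LPS cells. Every LPS array lay below every unstimulated array of its genotype, and the change was -1.41 ± 0.34 in control cells (limma adjusted p = 0.0152) and -1.59 ± 0.34 in ΔTrspM cells (limma adjusted p = 0.00864). Another probe set of E2f1 gave -0.53 and -0.50 in the 2 genotypes, and the control call was lost under 6 of the 23 alternatives. These were the mean of its probe sets (-0.51, limma adjusted p = 0.210), no scaling, the methods' t-test, and leaving out control unstimulated replicate 1 or 3 or control LPS replicate 2 (limma adjusted p = 0.0586, 0.0668 and 0.0619).

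Of the nucleotide supply genes, Tk1 (thymidine kinase, which salvages thymidine) passed in the average. Tk1 read 10.72, 9.48 and 11.31 in control unstimulated cells, 8.57, 7.06 and 9.42 in control LPS cells, 11.55, 9.73 and 11.73 in ΔTrspM unstimulated cells and 9.51, 7.84 and 9.81 in ΔTrspM LPS cells. The control groups did not overlap and the ΔTrspM groups did, through LPS replicate 3. The average change was -2.05 ± 0.54 (limma adjusted p = 0.0143). Rrm1 (-1.22) and Rrm2 (-1.48), the subunits of ribonucleotide reductase, and Tyms (-0.88), thymidylate synthase, missed the threshold without the block (limma adjusted p = 0.115, 0.0902 and 0.0785) and passed with it (0.000251, 0.000223 and 0.0441). The Tyms arrays read 6.26, 6.66 and 5.87 in control LPS cells against 7.03, 5.84 and 7.03 unstimulated. Replicate 2 was the highest of those LPS arrays, and the control groups of Tyms, Rrm1 and Rrm2 each overlapped. The Tyms set used was dim (mean log2 signal 6.31) and gave -0.37 in control and -1.39 in ΔTrspM cells. Another set, at 6.21, gave 0.39 and -0.46. The other sets, at 5.28 and 4.93, gave 0.25 and -0.55 in control and -0.54 and -0.10 in ΔTrspM cells.

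Of the 4 fork genes 1 passed in the average, and 2 did with the block. Gins1, a GINS subunit, changed by -1.70 ± 0.49 in the average (limma adjusted p = 0.0236), and the call was lost without any of 6 arrays taken singly. Gins2, another subunit, changed by -0.95 ± 0.58 (limma adjusted p = 0.265, and 0.0245 with the block). Cdc45, which joins the GINS complex on the helicase, changed by -0.58 ± 0.40 (limma adjusted p = 0.319, and 0.0556 with the block). Pcna, the sliding clamp of the polymerases, read 13.77, 13.58 and 13.70 in control unstimulated cells, 13.57, 13.15 and 13.51 in control LPS cells, 13.81, 13.75 and 13.82 in ΔTrspM unstimulated cells and 13.49, 13.45 and 13.53 in ΔTrspM LPS cells. LPS arrays lay below all unstimulated arrays of their genotype, but by 0.29 ± 0.12 log2 units on average (a change of -0.29, limma adjusted p = 0.101). Pcna was read at the bright end of the array scale.

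**Figure D2:**
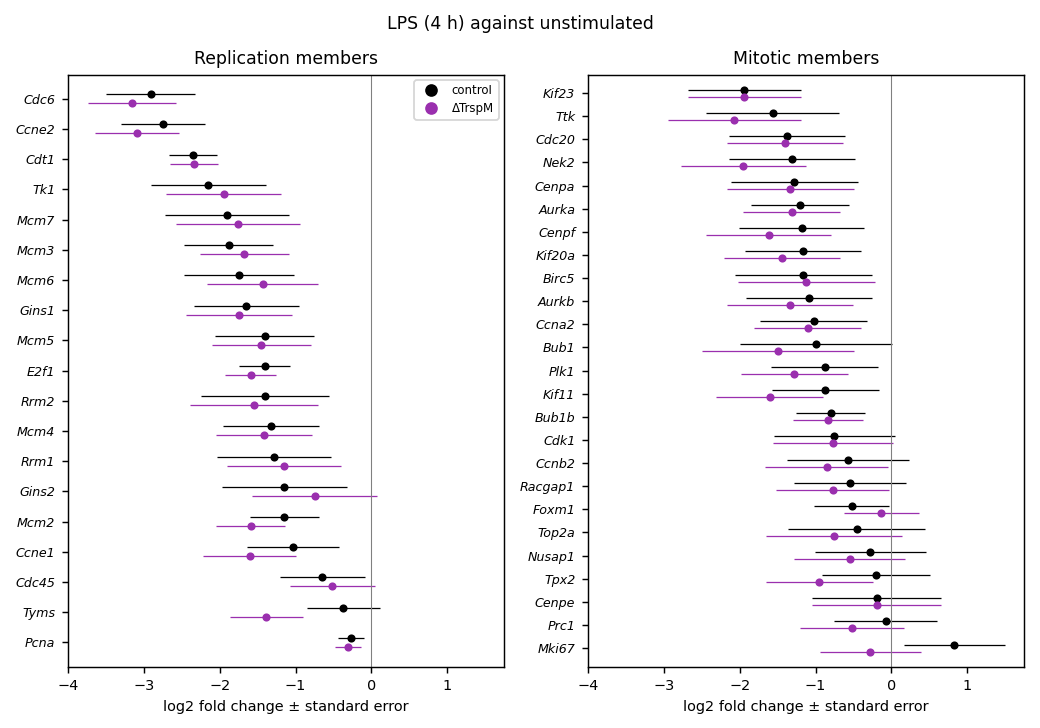
Log2 fold change of each measured member with LPS (4 h) against unstimulated, with its standard error from the limma fit, in control (black) and ΔTrspM (purple) BMDMs. The left panel holds replication members and the right panel mitotic members, each ordered by the control change. Cdc6, Ccne2 and Cdt1 lie farthest from 0, and Mki67 is the single member above 0 in control cells (0.83).

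Mitotic genes lay lower with LPS on average, but by less. Without the replicate block 0 of 25 passed in either genotype alone by limma. With the block 14 passed in control and 17 in ΔTrspM cells, where 13.4% and 13.2% of all genes were lower. At an unadjusted p under 0.05 the limma count without the block was 1 in control and 4 in ΔTrspM cells, where 16% and 15.9% of all genes were lower. By the methods' t-test the count of mitotic genes at that threshold was 0 in both, where 13.9% of all genes were lower in each. Their median log2 change was -0.88 in control and -1.12 in ΔTrspM cells, next to -1.41 and -1.59 for the replication genes and -0.05 and -0.03 for all genes. Leaving out single arrays moved the mitotic median between -1.47 (without control unstimulated replicate 2) and -0.39 (without control unstimulated replicate 3) in control cells, and between -1.87 (without ΔTrspM unstimulated replicate 2) and -0.70 (without ΔTrspM unstimulated replicate 3) in ΔTrspM cells. The replication median moved between -1.95 (without control LPS replicate 3) and -0.81 (without control LPS replicate 2) in control cells, and between -1.86 (without ΔTrspM LPS replicate 3) and -1.02 (without ΔTrspM LPS replicate 2) in ΔTrspM cells. The order of the classes across these settings was not tested. Kif23, a kinesin of the spindle midzone, read 8.74, 7.92 and 9.78 in control unstimulated cells, 7.28, 5.33 and 8.0 in control LPS cells, 10.18, 8.43 and 10.00 in ΔTrspM unstimulated cells and 7.85, 6.60 and 8.34 in ΔTrspM LPS cells. Its ΔTrspM groups did not overlap and its control groups did, through unstimulated replicate 2, and the average change was -1.94 ± 0.53 (limma adjusted p = 0.0176). Ttk, the kinase that starts the spindle checkpoint, changed by -1.82 ± 0.62 in the average (limma adjusted p = 0.0477), and the call was lost without any of 8 arrays taken singly.

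In several mitotic genes the LPS and unstimulated groups overlapped, although LPS was lower in all 6 replicate pairs. Cdc20, an activator of the anaphase promoting complex, read 11.00, 9.41 and 12.06 in control unstimulated cells, 9.32, 8.48 and 10.54 in control LPS cells, 11.89, 10.41 and 12.37 in ΔTrspM unstimulated cells and 10.59, 9.12 and 10.76 in ΔTrspM LPS cells. Each LPS array lay below the unstimulated array of its number, and the groups overlapped in both genotypes. The average change was -1.39 ± 0.54 (limma adjusted p = 0.0804, and 0.000252 with the block). Ccnb2 (cyclin B2) read 10.48, 9.05 and 11.62 in control unstimulated cells, 9.72, 8.72 and 11.00 in control LPS cells, 11.56, 9.79 and 11.92 in ΔTrspM unstimulated cells and 10.65, 9.08 and 10.97 in ΔTrspM LPS cells. Its groups overlapped over most of their range, with an average change of -0.71 ± 0.57 (limma adjusted p = 0.403, and 0.00716 with the block). Cdk1, the kinase that binds it, gave -0.76 ± 0.56 (limma adjusted p = 0.361, and 0.00552 with the block).

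The remaining mitotic genes can be placed by role. The kinases and checkpoint genes Aurka, Aurkb, Plk1, Bub1, Bub1b and Nek2 changed by between -0.82 (Bub1b) and -1.63 (Nek2) in the average, and each passed with the block but not without it. The kinetochore genes Cenpa (-1.31) and Cenpf (-1.40) and the passenger complex gene Birc5 (-1.14) did the same, as did the cyclin gene Ccna2 (-1.07), the kinesin genes Kif11 (-1.24) and Kif20a (-1.31), the spindle factor gene Tpx2 (-0.58), the midzone gene Racgap1 (-0.66) and the topoisomerase gene Top2a (-0.61). 5 mitotic genes passed neither way: the bundling protein genes Nusap1 (-0.41) and Prc1 (-0.30), the kinesin gene Cenpe (-0.20), Foxm1 (-0.33), the transcription factor of the mitotic program, and Mki67 (0.28). Among these 5 the smallest limma adjusted p with the block was that of Nusap1 (0.166). The place of Foxm1 depended on its probe set, which had a mean log2 signal of 7.38. Another set, at 7.21, gave -1.53 in control and -1.25 in ΔTrspM cells (limma adjusted p = 0.0587 in the average, over all probe sets). A further set, at 7.15, gave -0.36 and -0.32.

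Mki67, the gene of the proliferation antigen Ki-67, had a higher mean with LPS in control cells, unlike its class, through replicate 2 alone. In both genotypes the LPS array was higher in replicate 2 and lower in replicates 1 and 3. It read 11.58, 9.49 and 12.41 in control unstimulated cells, 11.57, 12.27 and 12.12 in control LPS cells, 12.45, 10.79 and 12.53 in ΔTrspM unstimulated cells and 11.64, 11.25 and 12.05 in ΔTrspM LPS cells. The control LPS arrays lay within the range of the control unstimulated arrays, and replicate 2 rather than replicate 1 or 3 was the highest of the LPS arrays. The control difference was 0.83 ± 0.67 (limma adjusted p = 0.468) and the ΔTrspM difference was -0.28 ± 0.67 (limma adjusted p = 0.835). The 95% interval of the difference between the genotypes ran from -3.18 to 0.97.

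**Figure D3:**
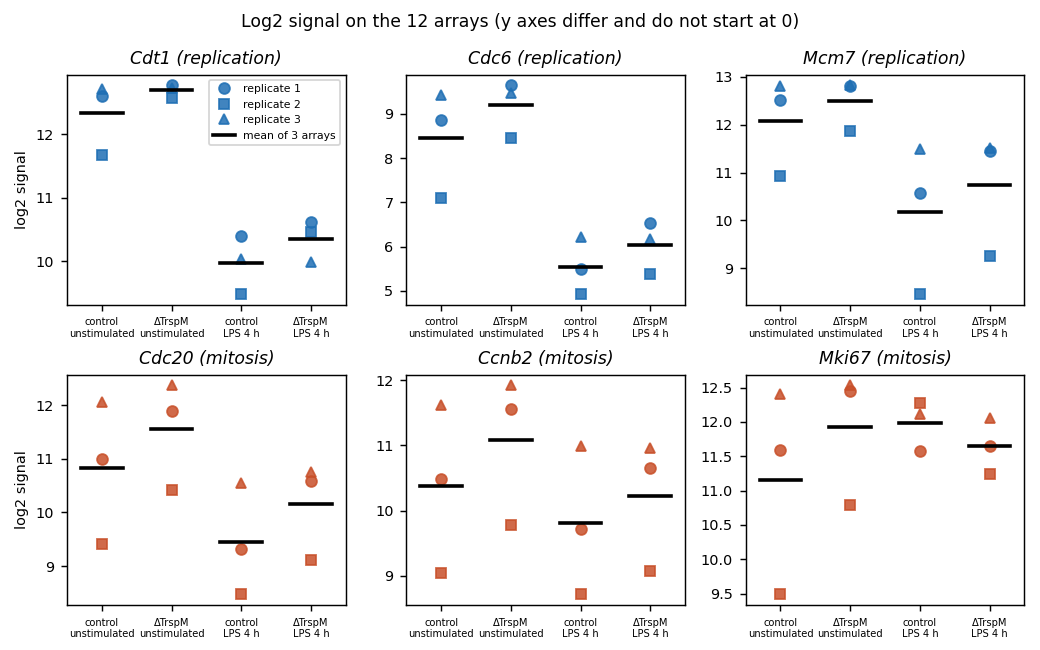
Log2 signal of 6 members on the 12 arrays, with replication genes in blue and mitotic genes in orange. Marker shape gives the replicate number and black bars are means of 3 arrays, and the y axes differ between panels and do not start at 0. For Cdt1 and Cdc6 every LPS array lies below every unstimulated array of its genotype, for Cdc20 and Ccnb2 the groups overlap, and for Mki67 control LPS replicate 2 lies at 12.27.

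The 2 classes were set against each other on the same arrays. The median LPS change of the replication genes was lower than that of the mitotic genes by 0.52 log2 units in control cells (a difference of -0.52), by 0.47 in ΔTrspM cells (-0.47) and by 0.39 in the average (-0.39). The mitotic minus replication deviation was 0.04, 0.49 and 0.40 on the control LPS arrays and -0.46, -0.70 and 0.01 on the control unstimulated arrays, which did not overlap. On the ΔTrspM arrays it was 0.24, 0.31 and 0.29 with LPS and 0.20, -0.84 and 0.36 unstimulated, which overlapped. Leaving out Ccna2, Cdk1, Mki67 and Top2a, which act in S phase or G2 as well as in mitosis, put the mitotic medians at -0.99 in control and -1.32 in ΔTrspM cells. No p-value is given for these class medians, since the members are not replicates.

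LPS was lower in all 6 replicate pairs (3 of each genotype) for 36 of the 44 members, against 22.1% of all genes. That held for 17 of 19 replication genes and 19 of 25 mitotic genes. The exceptions among the replication genes were Cdc45 and Tyms, each with 1 pair the other way. Among the mitotic genes they were Nusap1, Tpx2 and Prc1, each with 1 such pair, and Cenpe, Mki67 and Foxm1, each with 2.

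Genes of both programs outside the members were read from lists chosen by function. In the average 16.5% of all genes fell with LPS and 11.8% rose. Of 46 further replication genes 29 fell with LPS in the average and 0 rose, with a median change of -1.31 against -0.02 for all genes. Msh6, a mismatch repair protein, changed by -3.19 ± 0.27 and Pole2, a subunit of polymerase epsilon, by -3.16 ± 0.31 (limma adjusted p = 9.55e-06 and 2.67e-05). Of 57 further mitotic genes 12 fell and 2 rose, with a median of -1.01. The share of them that fell is near that of all genes. Bora, an activator of Aurora A, changed by -2.19 ± 0.26 (limma adjusted p = 0.000115), and Pttg1, securin, changed by 0.76 ± 0.16 (limma adjusted p = 0.00493). With the replicate block the counts were 42 of 46 lower, and 39 lower with 2 higher of 57. With the block 20.9% of all genes were lower and 13.9% higher.

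Genes upstream of S phase moved in both directions. For each list the background is the 16.5% of all genes that fell and the 11.8% that rose in the average. Of 11 G1 cyclin and kinase genes 6 fell and 2 rose with LPS. Ccnd1 (cyclin D1) changed by -3.17 ± 0.31 and Ccnd2 (cyclin D2) by 2.94 ± 0.41 (limma adjusted p = 2.71e-05 and 0.000292), while Skp2, the ubiquitin ligase subunit that removes the CDK inhibitor p27, changed by -3.24 ± 0.27 (limma adjusted p = 9.82e-06). Of 22 E2F, pocket protein and Myc network genes 9 fell and 2 rose: E2f2, another activator E2F, changed by -3.53 ± 0.38, Myc by -2.41 ± 0.23 and Mxd1, the partner of Max that opposes Myc, by 3.03 ± 0.22 (limma adjusted p = 5.05e-05, 2.12e-05 and 3.29e-06). The repressor gene E2f6 changed by -2.07 ± 0.17 (limma adjusted p = 8.55e-06).

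Of 8 CDK inhibitor genes 1 rose and 1 fell, shares near the 11.8% and 16.5% of all genes. The same background applies to the lists that follow. Cdkn1a (p21) read 11.69 in control and 11.85 in ΔTrspM unstimulated cells as group means, 13.67 and 13.57 with LPS, and changed by 1.84 ± 0.14 (limma adjusted p = 4.68e-06). Cdkn2c (p18) changed by -1.75 ± 0.54 (limma adjusted p = 0.0332), and Cdkn1b (p27) differed by 0.83 ± 0.33 (limma adjusted p = 0.0846). Of 22 antiproliferative and p53 target genes 6 rose and 6 fell, among them Gadd45b (3.30 ± 0.24), Ccng2 (2.20 ± 0.25) and Btg2 (1.63 ± 0.27) upward and Sesn1 (-4.32 ± 0.30) downward (limma adjusted p from 2.11e-06 to 0.00101). In the M-CSF pathway list 3 of 13 rose and 3 fell: Csf1, the gene of M-CSF itself, changed by 3.10 ± 0.35 and Dusp6, a phosphatase induced by ERK signalling, by -3.03 ± 0.32 (limma adjusted p = 7.72e-05 and 4.7e-05), and Csf1r, the M-CSF receptor, differed by -0.23 ± 0.12 (limma adjusted p = 0.180).

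Genotype gave no call among the members. In unstimulated cells 0 of 44 members passed in either direction (limma, smallest adjusted p above 0.99), where 0% of all genes passed. At an unadjusted p under 0.05 the count was 0 by limma, where 1.12% of all genes were higher and 1.27% lower, and 0 by the methods' t-test, where 1.85% were higher and 1.52% lower. With LPS 0 members passed (limma, smallest adjusted p 0.868), where 0% of all genes rose and 0.011% fell. The counts at an unadjusted p under 0.05 with LPS were again 0 by limma (3.58% of all genes higher, 2.19% lower) and 0 by the methods' t-test (2.57% higher, 1.69% lower). With the replicate block 25 members in unstimulated cells and 11 with LPS were higher in ΔTrspM at an unadjusted p under 0.05, against 2.51% and 5.76% of all genes. Their smallest limma adjusted p with the block was 0.921 unstimulated and 0.344 with LPS.

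The members nevertheless lay to one side. The ΔTrspM mean was above the control mean for 44 of 44 members in unstimulated cells and 40 of 44 with LPS, where 56.5% and 55.3% of all genes were higher. The median difference was 0.42 for replication and 0.72 for mitotic genes unstimulated, and 0.38 and 0.42 with LPS, against 0.04 for all genes in both. In all 6 replicate pairs ΔTrspM was the higher for 18 members, 6 replication and 12 mitotic, against 4.85% of all genes. Leaving out an array of 1 genotype unbalances the replicate numbers, and it moved the medians. Without control unstimulated replicate 2 they were -0.01 and 0.07, with Rrm1 at -0.19 and Mki67 at -0.07. Without control LPS replicate 2 the LPS medians were -0.18 and -0.08, with Gins2 at -0.20, Ccnb2 at -0.13 and Kif23 at -0.05. With no scaling between arrays the LPS medians were -0.37 for both classes. With the block and without replicate 2 of every group the medians were 0.32 and 0.69 unstimulated and 0.27 and 0.43 with LPS.

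Single members had wide intervals. Nek2, a centrosome kinase, had the widest unstimulated difference at 1.00 ± 0.83 (95% interval -0.82 to 2.83). Its control arrays read 8.34, 8.21 and 10.25 and its ΔTrspM arrays 10.51, 8.65 and 10.65. The groups overlapped, although each ΔTrspM array was above the control array of its number. Rrm2 differed by 0.84 ± 0.84 (-1.01 to 2.69) and Cdc6 by 0.73 ± 0.58 (-0.55 to 2.02), while Cdt1 differed by 0.36 ± 0.32 (-0.33 to 1.06). Each of these intervals held 0 and also a doubling of the signal. The intervals with the replicate block were 0.14 to 1.87 for Nek2, 0.27 to 1.40 for Rrm2 and 0.05 to 1.42 for Cdc6, which left out 0, and -0.23 to 0.96 for Cdt1, while no limma adjusted p with the block was under 0.921 among the members.

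With LPS, Foxm1 was the member whose genotypes did not overlap, where 5.37% of all genes were higher without overlap. It read 7.14, 5.86 and 7.14 in control cells and 7.70, 7.42 and 8.05 in ΔTrspM cells. The difference was 1.01 ± 0.49 (limma adjusted p = 0.868, and 0.344 with the block). Other probe sets of Foxm1 gave 0.75, 0.43 and, for a set at a mean log2 signal of 4.53, -0.13. Tyms lay the other way, at 6.26, 6.66 and 5.87 in control and 6.21, 4.36 and 5.86 in ΔTrspM cells, with a difference of -0.79 ± 0.48 (limma adjusted p = 0.927). The ΔTrspM value of 4.36 is close to the floor set by the added constant.

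**Figure D4:**
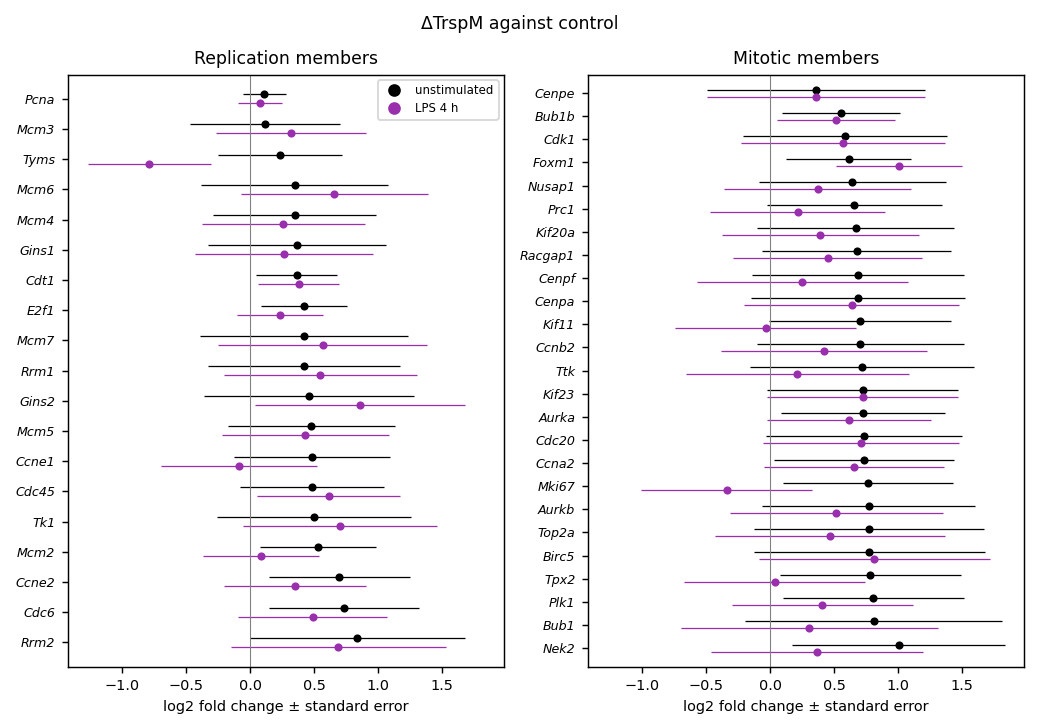
Log2 fold change of each measured member in ΔTrspM against control BMDMs with its standard error from the limma fit, unstimulated (black) and with LPS for 4 h (purple). The left panel holds replication members and the right panel mitotic members, each ordered by the unstimulated difference. All 44 black points lie above 0, and for most of them 1 standard error reaches 0, and 4 purple points lie below 0 (Tyms, Ccne1, Mki67 and Kif11).

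The stromal marker list lay to the same side as the members between genotypes, with median differences of 0.66 unstimulated and 1.09 with LPS. Its summed signal over 12 genes ran from 1065 to 12418 (median 6825) in control and from 2675 to 16879 (median 11862) in ΔTrspM unstimulated cells. With LPS it ran from 5846 to 7643 (median 7002) in control and from 5533 to 16760 (median 13676) in ΔTrspM cells. The LPS sums include a rise of the list gene Pdgfrb, by 4.45 in control and 2.99 in ΔTrspM cells (limma adjusted p = 0.000467 and 0.00525). Pdgfrb read 11.02, 11.95 and 11.06 on the control LPS arrays. Its genotype difference with LPS was -0.67, where 10 of the 12 genes lay above 0 and 2 below. 0 of these 12 genes passed between genotypes by limma, 0 had an unadjusted p under 0.05 by limma at either stimulus, and 1 did by the methods' t-test with LPS. With the block 2 of the 12 were higher in ΔTrspM at an unadjusted p under 0.05 unstimulated and 7 with LPS, against the same 2.51% and 5.76% of all genes. Of the 12, 3 had a mean log2 signal under 6 in unstimulated cells and 1 with LPS. Macrophage markers had like sums in the 4 groups, with medians between 82403 and 90165. Lymphoid markers (9 genes) summed to 980.4 at most. Other marker sums differed with LPS: the median sum of neutrophil and myeloid precursor markers was 7586 in control and 8100 in ΔTrspM unstimulated cells and 13743 and 14912 with LPS. The erythroid median sums were 4008 and 4471 unstimulated and 2565 and 3068 with LPS. Most of that signal was Tfrc, the transferrin receptor gene, with group means between 11.24 and 12.01. In each group 5 or 6 of the 8 erythroid markers had a mean log2 signal under 6, so the sums do not measure erythroid content. The median sums of mast cell and basophil markers were 374 and 494 unstimulated and 2440 and 2064 with LPS. Of these, Hdc, the histidine decarboxylase gene, rose by 6.20 on the log2 scale in the average. The part of these marker lists in the LPS changes of the members was not tested. The part of stromal cells in the genotype differences was not tested.

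The LPS change did not differ detectably between the genotypes. 0 of 44 members passed the interaction in limma, where 0% of all genes did, and 0 had an unadjusted p under 0.05, where 1.69% of all genes were above 0 and 1.36% below. With the replicate block the count at an unadjusted p under 0.05 was 1, Kif11, a kinesin of the spindle poles (limma adjusted p above 0.99), where 2.03% of all genes were below 0. The interaction was 0.01 for Cdt1 (95% interval -0.97 to 1.00), -0.24 for Cdc6 (-2.06 to 1.57), -0.35 for Ccne2 (-2.07 to 1.37) and -0.19 for E2f1 (-1.23 to 0.86). The widest values were -1.11 for Mki67 (-3.18 to 0.97) and -1.02 for Tyms (-2.52 to 0.48). For Cdt1 the interval limits a difference between the genotypes to about a doubling in either direction, and for most members it allows more.

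34 of the 44 members had several probe sets (105 over all members), and some calls differed between the sets of a gene. For Cdt1 another set gave -2.04 in control and -2.19 in ΔTrspM cells with LPS, and a dim set gave -0.47 and -0.05. For 6 members that did not pass in the average (Rrm1, Nek2, Cdc20, Kif11, Cenpf and Top2a), another set was lower with a limma adjusted p under 0.05 over all probe sets. Those sets of Nek2, Cdc20 and Cenpf were dim, at mean log2 signals of 5.06, 5.75 and 5.90. Those of Kif11 and Top2a lay at 7.89 and 7.05, and those of Rrm1 at 10.37 and 5.52. Another set of Kif23, at a mean log2 signal of 6.54, changed by -2.43 in control and -2.33 in ΔTrspM cells (limma adjusted p = 0.00471 and 0.00641), whereas the set used passed in neither genotype alone. Over all probe sets tested at once, 2 other sets of members rose with LPS in the average, those of Bub1b and Tpx2, at mean log2 signals of 6.26 and 6.79.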

How the data were processed

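RNA of BMDMs was hybridised to Affymetrix mouse whole-genome arrays. The deposited values are 1 linear signal intensity per probe set and array, made by the authors in Expression Console according to the paper and labels, and the summarization of probes is not given in those sources. Of 45101 probe sets, 64 controls were left out, the 45037 others were quantile-normalized, 16 was added and log2 was taken, so fold changes of dim genes are understated. Probe sets with 1 gene symbol (34945, against 932 with several and 9160 with none) gave 18193 genes, each read from its brightest set. 0 columns of sample values were left unused.

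The 4 groups were fitted together with limma 3.58.1 in R 4.3.3 (8 residual degrees of freedom, 6 with a replicate block), with Benjamini-Hochberg adjustment over all genes at 0.05. A two-tailed t-test, named in the study's methods, served as an alternative. Samples of the same number deviated together in all 12 same-number pairs of compared groups (correlations over all genes 0.126 to 0.442, threshold 0.1). In the 6 same-number pairs of groups not compared directly the correlations ran from 0.0668, under the threshold, to 0.271. Over the members alone they ran from -0.388 to 0.839. The numbers were taken to pair the samples on the compared groups, and the labels do not say that they do. Other alternatives were median centring, no scaling, constants of 1 and 64, other probe set rules, a minimum mean log2 of 6, fits of the compared arrays alone, limma's trend and robust options, and leaving out each array. The limma step was tested on simulated data. With 3 arrays a group, array number limits the precision. Named were members with an adjusted p under 0.05, the 5 smallest p-values and the median member of each class, Mcm2 to Mcm7, up to 4 genes of each other list, and Lyz2; further members were named after their values were seen. The members and the gene lists were chosen with earlier results of these data known.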

Additional observations from a re-analysis of the deposited data

How the results depend on the processing

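Between genotypes and in the interaction the count of called members was 0 under every alternative run. The LPS counts moved with the setting, and the cause was not tested. With the replicate block, members lower with LPS numbered 29 in control, 33 in ΔTrspM and 37 in the average, and 22, 24 and 36 with replicate 2 of every group left out as well. With arrays centred on their median, 15 in ΔTrspM and 28 in the average fell, and with no scaling 20 and 30, with ΔTrspM medians of -2.63 (replication) and -2.24 (mitotic). The count of all genes lower in ΔTrspM moved as well, from 1548 in the main fit to 2651 with median centring and 3073 with no scaling. With no scaling 261 of all genes were higher in ΔTrspM, against 1326 in the main fit. By the methods' t-test 0 fell in control cells after adjustment, with 5 at an unadjusted p under 0.05. Over all probe sets 10 fell and 1 rose in ΔTrspM, and 2 rose in the average. Leaving out single arrays gave 3 to 6 in control, 4 to 5 in ΔTrspM and 8 to 24 in the average.

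The direction of the genotype difference with LPS turned for Cdt1 with median centring (-0.059). With no scaling it turned for Cdt1 (-0.57), Cdc45 (-0.23), Gins2 (-0.075), Tk1 (-0.13), Ccna2 (-0.26), Ccnb2 (-0.49), Aurka (-0.22), Bub1b (-0.36) and Kif23 (-0.0074). Leaving out single arrays, the genotype differences ran from -0.19 to 0.93 for Rrm1 and from -0.072 to 1.39 for Mki67 in unstimulated cells, and from -0.20 to 1.598 for Gins2, from -0.13 to 1.01 for Ccnb2 and from -0.048 to 1.29 for Kif23 with LPS. No result that was called turned its direction under the alternatives run. Cdc6, Cdt1 and Ccne2 kept their calls in both genotypes under all 23 alternatives except the t-test in control cells. The low signal of ΔTrspM LPS replicate 2 limits what the dim genes of that group can show.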
